A study of Rattus norvegicus with 20 samples.

Results

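The gp130 axis is the set of genes through which cytokines of the interleukin-6 family act on a cell: the ligands Cntf and Lif, the receptor genes Cntfr, Lifr, Osmr and Il6st, the kinases Jak1 and Jak2, the transcription factor Stat3 and the inhibitor Socs3. Its members were all probes of the rat array whose gene name or description gives 1 of these 10 genes, which found 13 of 41012 probes. Jak1 and Stat3 had 2 probes each, and 1 probe for an expressed-sequence cluster (TC538008) is described in the scanner files as Jak2. The other genes, and Jak2 itself, had 1 probe each. All 13 probes passed the filter on dim signal, and all 10 genes were among the 33089 genes tested. Of these 33089 entries 14475 had a current gene symbol. The others, the cluster TC538008 among them, were each counted as a gene under the name in the scanner files.

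The samples were cortical neurons of 2-month-old rats after stroke, called young in the series title. No strain, sex or stroke method is given in the sources used here. A first tracer, cholera toxin B with Alexa 488, was placed in the cortex beside the infarct, where axons sprout. After 7 or 21 days the same toxin with Alexa 647 was placed in the same spot, and 7 days later about 300 neurons of each cell type were taken from each animal by laser capture. Captured RNA went through a pair of T7 amplification rounds. Both groups, day 7 and day 21, hold 5 animals from separate cohorts, and in each animal neurons labelled as sprouting were hybridised against neurons labelled as non-sprouting on 2 arrays with the dyes swapped. Both cell types therefore come from the injured cortex of the same animal, and no animal without stroke is part of these comparisons.

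Cytokines of this family bind a receptor complex that contains gp130, the product of Il6st. Janus kinases held by the receptors then phosphorylate STAT3, which enters the nucleus and switches on genes that include Socs3, whose protein shuts the receptor complex down. In injured neurons the pathway is best known from peripheral nerve and retina, where STAT3 activity goes with axon regrowth and Socs3 limits it. STAT3 is controlled largely by phosphorylation, which an array of messenger RNA does not measure.

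The 250 bases before the annotated start of Stat3 and of Socs3 are shown because these genes are the factor and the inhibitor it induces. They are from RefSeq, build GRCr8, both on the minus strand and written 5′ to 3′ along the gene, Stat3 at chr10:86363360-86363609 and Socs3 at chr10:103694769-103695018. Capitals mark CCAAT boxes, searched as CCAAT and, for the other strand, ATTGG.
Stat3: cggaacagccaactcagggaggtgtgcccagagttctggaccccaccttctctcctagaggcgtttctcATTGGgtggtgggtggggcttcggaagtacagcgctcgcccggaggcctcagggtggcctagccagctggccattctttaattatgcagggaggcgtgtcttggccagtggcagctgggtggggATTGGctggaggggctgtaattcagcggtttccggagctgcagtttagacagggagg
Socs3: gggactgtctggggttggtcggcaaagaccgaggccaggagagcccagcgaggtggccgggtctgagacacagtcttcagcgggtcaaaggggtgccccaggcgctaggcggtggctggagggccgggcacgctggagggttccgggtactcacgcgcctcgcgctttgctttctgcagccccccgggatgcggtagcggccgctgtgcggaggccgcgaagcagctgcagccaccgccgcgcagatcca
Stat3 held the box 181 and 57 bases before the start, both times as ATTGG, and Socs3 held none, while 34% of all 33469 promoters of the table held it in the same window. The palindromic STAT element TTCNNNGAA, which reads the same on both strands, was in 0 of the 7 listed members (Cntf, Jak2, Il6st, Osmr, Lifr, Stat3 and Socs3) and in 7.67% of all promoters. The shorter spacing TTCNNGAA was in Cntf, 156 bases before the start, and in Il6st, 86 bases before it, against 7.48% of all promoters. These matches describe letters only, and the arrays do not measure binding. Each window rests on the annotated start, and whether these neurons use that start was not tested. A window without a match, as for Socs3, therefore says nothing about elements outside it.

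None of the 10 genes passed the test for a difference between sprouting and non-sprouting neurons, an adjusted p under 0.05 by limma with Benjamini-Hochberg adjustment over all genes, at day 7, at day 21, on the mean of both days or in the change between days. Of all genes, 0.00302% passed at day 7 and 0% in the other 3 comparisons. At an unadjusted p under 0.05 the count of members was 0 at day 7, 0 at day 21, 2 on the mean of both days and 0 for the change between days, where 9.47%, 5.8%, 11% and 4.05% of all genes reached it. The median log2 ratio over the 10 members was 0.027 at day 7 and 0.009 at day 21, beside -0.005 and -0.001 over all genes. The probe of the set with the lowest p in any of these 4 comparisons was the dimmer of the Stat3 probes at day 7. It was also the 1 probe of the 13 with the same sign in all 5 animals of that day, which 8.66% of all probes had.

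The arrays set the limits of these values. In a single channel 40.5% to 94.6% of probes were well above background, and the median signal of negative-control spots was 63.4 to 103 in Cy5 and 102 to 138 in Cy3. The 2 arrays of an animal, turned to the same direction, correlated over genes at 0.335 to 0.733 in 9 animals and at -0.358 in animal 4 of day 21. The labels give it a dye swap like the others, the direction of its ratios is not settled by the arrays, and its averaged ratios lay close to 0 (SD over genes 0.065, against 0.155 to 0.239 in the others). Without it the day 21 means were 0.107 for Cntf, 0.035 for Lif, 0.021 for Cntfr, -0.024 for Lifr, -0.064 for Osmr, -0.034 for Il6st, -0.154 for Jak2, 0.067 for the cluster probe described as Jak2 and 0 for Socs3. They were 0.203 and -0.018 at the brighter and dimmer Jak1 probes and 0.04 and 0.038 at the brighter and dimmer Stat3 probes, with limma unadjusted p of 0.0769 or more throughout. In pooled cells, fewer cells with a transcript and less of it per cell cannot be told apart.

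**Figure D1:**
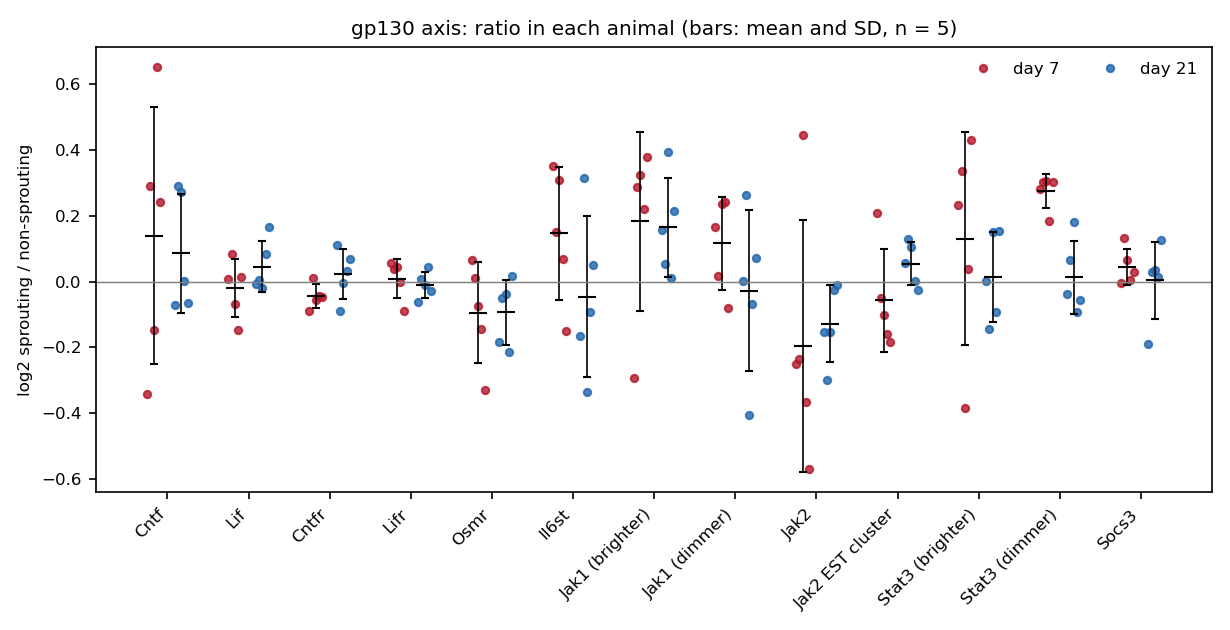
Log2 ratio of sprouting over non-sprouting neurons (y axis) for each of the 13 probes of the axis (x axis); each point is 1 animal, red at day 7 and blue at day 21, and bars give the mean and SD of 5 animals. The dimmer Stat3 probe is the only one whose day 7 and day 21 animals do not overlap, by 0.184 against 0.181, and they overlap with the scanner's processed signals.

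Among the ligands, Cntf, which encodes ciliary neurotrophic factor, gave log2 ratios of -0.34, 0.29, -0.15, 0.65 and 0.24 in the 5 animals of day 7, and of -0.07, 0.29, 0.27, 0.003 and -0.065 at day 21. Animals lay on both sides of 0 on both days. The mean was 0.14 ± 0.39 (SD, n = 5) at day 7 and 0.086 ± 0.18 (SD, n = 5) at day 21. The 95% interval at day 7 ran from -0.13 to 0.41, which includes a 1.33-fold higher level in sprouting neurons. Lif, the ligand leukemia inhibitory factor, stayed between -0.15 and 0.085 at day 7 and between -0.02 and 0.165 at day 21. Its signal was a median of 1.28 times that of negative-control spots over the 40 channel readings, and the 2 arrays of an animal agreed in sign in 4 of 10 animals.

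Of the receptors, Il6st was the one measured clearly above the controls, with a median signal of 2.66 times the negative-control level. Its ratio was 0.35, 0.15, 0.31, 0.069 and -0.15 in the day 7 animals, positive in 4 of 5. At day 21 it was -0.17, 0.31, -0.335, -0.092 and 0.051, positive in 2 of 5. The groups overlapped: the mean was 0.146 ± 0.20 (SD, n = 5) at day 7 and -0.046 ± 0.24 (SD, n = 5) at day 21. The change between days was -0.19 (95% interval -0.48 to 0.094; limma unadjusted p = 0.166, adjusted p = 0.943).

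Lifr, the receptor chain that pairs with gp130 for Lif and Cntf, gave ratios between -0.089 and 0.055 at day 7 and between -0.063 and 0.043 at day 21. Its 95% interval at day 7 was -0.056 to 0.074, so the measured ratio leaves room for at most a 1.05-fold difference on this scale. That scale is compressed for Lifr, since its signal was a median of 1.24 times the negative-control level, and normexp with an offset of 50 draws ratios of dim probes towards 0. From the scanner's own processed signals the mean at day 21 was -0.28 with an SD of 0.44 between animals.

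Cntfr encodes the alpha receptor that binds Cntf. Its probe was well above background on 5 and 4 of 10 arrays at day 7, in sprouting and in non-sprouting neurons, and on 3 and 3 of 10 at day 21. Its mean ratio was -0.045 ± 0.036 (SD, n = 5) at day 7 and 0.024 ± 0.076 (SD, n = 5) at day 21. From processed signals the means were 0.099 and -0.21, the reverse signs, with an SD of 1.15 between the day 21 animals. The direction of Cntfr is therefore not settled in these data. Osmr, the oncostatin M receptor chain, was well above background on 29 of 40 channel readings. Its ratio was negative in 3 of 5 animals at day 7 and in 4 of 5 at day 21, and the mean was -0.094 on both days with SDs of 0.15 and 0.10. Over both days the mean ratio was -0.094 (SE 0.039; limma unadjusted p = 0.037, adjusted p = 0.436), or -0.079 with p = 0.0884 without animal 4 of day 21. With median centring in place of loess it was -0.011 (limma unadjusted p = 0.835).

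Jak1 and Jak2 encode the kinases bound to these receptors. The brighter Jak1 probe gave -0.29, 0.29, 0.32, 0.22 and 0.38 at day 7 and 0.155, 0.053, 0.39, 0.011 and 0.21 at day 21. All animals but animal 1 of day 7 lay above 0. The mean was 0.18 ± 0.27 (SD, n = 5) at day 7 and 0.165 ± 0.15 (SD, n = 5) at day 21. Over both days it was 0.17 (SE 0.063), a 1.13-fold higher level in sprouting neurons, with unadjusted p = 0.0201 and adjusted p = 0.42 by limma, the lowest p of the 10 genes. With each animal left out in turn the day 7 mean ran from 0.135 to 0.302, the highest without animal 1, and the limma unadjusted p from 0.206 down to 0.000514 (adjusted p 0.76 to 0.117). With median centring in place of loess the day 7 mean was 0.11 (limma unadjusted p = 0.272) and the mean of both days 0.124 (limma unadjusted p = 0.0905).

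The dimmer Jak1 probe gave other values. They were 0.165, 0.016, 0.23, 0.24 and -0.079 at day 7 and 0.001, 0.26, -0.405, -0.067 and 0.072 at day 21. Its mean was 0.12 ± 0.14 (SD, n = 5) at day 7 and -0.028 ± 0.24 (SD, n = 5) at day 21. Both probes had the same sign in 6 of 10 animals, and over the 10 animals their ratios correlated at -0.4. Animal 1 of day 7, the lowest at the brighter probe, was positive at the dimmer one.

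Jak2 was negative in 9 of 10 animals, counting animal 4 of day 21, whose direction is not settled. The ratios were -0.25, -0.235, 0.44, -0.365 and -0.57 at day 7 and -0.15, -0.30, -0.15, -0.025 and -0.01 at day 21. Only animal 3 of day 7 lay above 0. The mean was -0.196 ± 0.38 (SD, n = 5) at day 7 and -0.13 ± 0.12 (SD, n = 5) at day 21, and the mean of both days -0.16 (limma unadjusted p = 0.0714, adjusted p = 0.494). With each animal left out in turn the day 7 mean ran from -0.102 to -0.356, the latter without animal 3, and the limma unadjusted p from 0.396 down to 0.000297 (adjusted p 0.824 to 0.245). The cluster probe described as Jak2 was the brightest signal of the set, at a median of 14.6 times the negative controls, and its 2 arrays had the same sign in 9 of 10 animals. Its means were -0.058 ± 0.16 (SD, n = 5) at day 7 and 0.054 ± 0.066 (SD, n = 5) at day 21. It shared its sign with the Jak2 probe in 4 of 10 animals, with a correlation of 0.0348.

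Stat3 is the transcription factor that the kinases activate. Both of its probes carry the same transcript accession in the files. At the dimmer probe the day 7 ratios were 0.28, 0.30, 0.31, 0.18 and 0.30, and all 10 day 7 arrays were positive, from 0.016 to 0.42. At day 21 they were -0.037, 0.065, 0.18, -0.092 and -0.055, and 5 of 10 arrays were positive. The lowest day 7 animal, at 0.184, lay just above the highest day 21 animal, at 0.181. The mean was 0.275 ± 0.052 (SD, n = 5) at day 7, a 1.21-fold higher level in sprouting neurons, and 0.012 ± 0.11 (SD, n = 5) at day 21.

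Tested over all 37343 probes, the day 7 ratio of this probe had a limma unadjusted p of 4.17e-05, rank 7 of all probes, and an adjusted p of 0.166, so it did not pass the threshold; 0.00268% of probes did. Leaving out each animal in turn, the mean ran from 0.267 to 0.297 and the adjusted p from 0.112 to 0.423. It passed in 1 alternative, a limma fit that kept the 20 arrays apart, joined those of an animal by a random block and added a dye term. The adjusted p there was 0.0117, and 1.38% of probes passed. The change between days was -0.26 (95% interval -0.39 to -0.14; limma unadjusted p = 0.000923, adjusted p = 0.951). It was -0.24 without animal 4 of day 21. Of the 13 probes it was the only 1 whose 5 day 7 and 5 day 21 ratios did not overlap, and 0.757% of all probes measured in every animal showed such a gap. With the scanner's processed signals the groups overlapped, with the lowest day 7 animal at 0.297 and the highest day 21 animal at 0.401. At day 21 the brighter Jak1 probe and the Jak2 probe had the same sign in all 5 animals, against 8.34% of probes. These counts include animal 4, whose direction is not settled, at 0.011 for Jak1 and -0.025 for Jak2.

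The brighter Stat3 probe, which stood for the gene in the test over genes, gave a wider spread. Its day 7 ratios were 0.23, 0.34, -0.385, 0.039 and 0.43, and its day 21 ratios 0.003, -0.145, 0.15, -0.092 and 0.15. In animal 3 of day 7 both arrays were negative, at -0.36 and -0.41, while both arrays of that animal were positive at the dimmer probe, at 0.24 and 0.37. The mean was 0.13 ± 0.32 (SD, n = 5) at day 7 and 0.014 ± 0.14 (SD, n = 5) at day 21 (limma unadjusted p = 0.222 and adjusted p = 0.685 at day 7). With each animal left out in turn the day 7 mean ran from 0.056, without animal 5, to 0.259, without animal 3, and the limma unadjusted p from 0.606 to 0.00459 (adjusted p 0.907 to 0.399). With median centring in place of loess it was 0.026 (limma unadjusted p = 0.841). The 2 probes had the same sign in 6 of 10 animals and correlated at 0.285 over the 10.

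**Figure D2:**
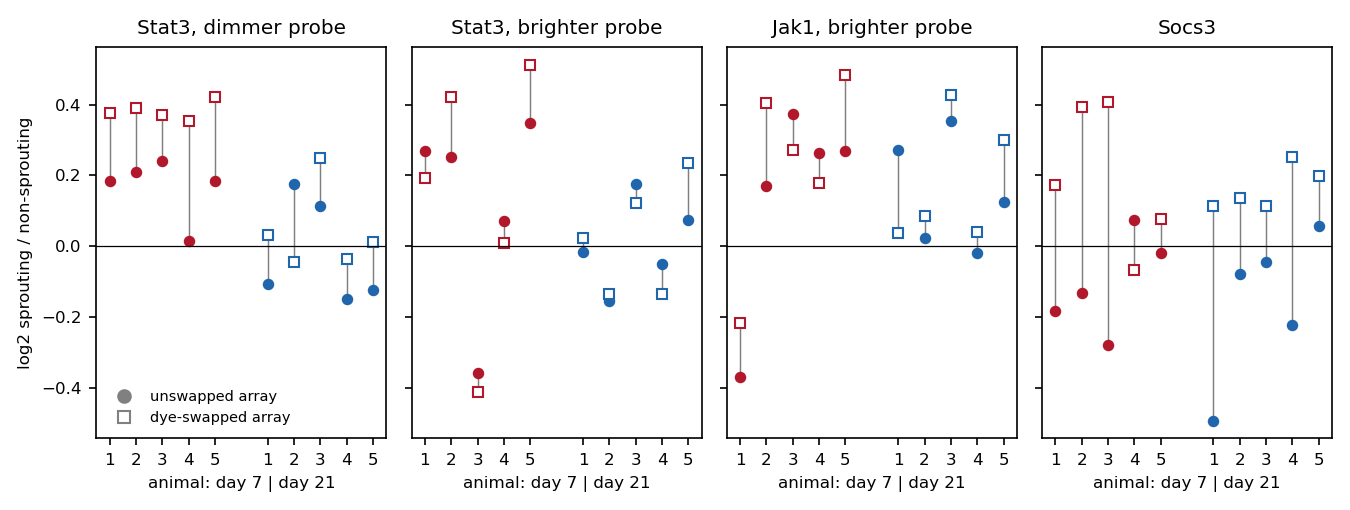
Log2 ratio of sprouting over non-sprouting neurons (y axis) on both arrays of each animal (x axis: animals 1 to 5 of day 7 in red, 1 to 5 of day 21 in blue) for 4 probes; filled circles are unswapped arrays, open squares dye-swapped ones, and a line joins the arrays of an animal. The dimmer Stat3 probe is above 0 on all 10 day 7 arrays, and the arrays of an animal fall on opposite sides of 0 for Socs3 in 9 of 10 animals.

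The orientation of the dyes moved with some of these ratios. At the dimmer Stat3 probe the swapped array was above the unswapped one in 9 of 10 animals, by a mean of 0.14. At the brighter Stat3 probe the gap was 0.023. Each animal has 1 array of each orientation, so the gap cancels in the animal's mean.

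Socs3, the inhibitor induced by STAT3, showed the largest such gap of the set. Unswapped arrays averaged -0.13 and swapped arrays 0.18, and the 2 arrays of an animal had the same sign in 1 of 10 animals. Averaged per animal, the ratios were -0.005, 0.13, 0.064, 0.004 and 0.029 at day 7 and -0.19, 0.029, 0.035, 0.015 and 0.13 at day 21. All but animal 1 of day 21 lay between -0.005 and 0.131. The mean was 0.045 ± 0.055 (SD, n = 5) at day 7 and 0.003 ± 0.12 (SD, n = 5) at day 21 (limma adjusted p = 0.746 and 0.996). Its signal was a median of 1.49 times that of the negative controls, and the 95% interval at day 7 was -0.048 to 0.138.

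The size of the ratios changed with the processing. The scanner's processed signals were centred on the median, so this alternative changed background and normalization together. With no background subtraction and loess kept, the dimmer Stat3 probe had a day 7 mean of 0.229. In that setting the day 21 means were 0.146 at the brighter Jak1 probe and -0.065 for Osmr. With the scanner's processed signals in place of normexp and loess, the dimmer Stat3 probe had a day 7 mean of 0.38 ± 0.057 (SD, n = 5) and was again positive in 5 of 5 animals, with a limma unadjusted p of 0.00149 and an adjusted p of 0.896; the day 21 mean was 0.051. With median centring in place of loess the day 7 mean was 0.221 (limma unadjusted p = 0.00728, adjusted p = 0.393). With processed signals the brighter Jak1 probe had 0.27 at day 7 and 0.47 at day 21, positive in 5 of 5 animals of day 21. Osmr had -0.18 at day 7 and -0.39 at day 21, negative in 5 of 5 animals of day 21 (limma unadjusted p = 0.0114, adjusted p = 0.669), while median centring gave -0.011 on both days. The day 21 counts of Jak1 and Osmr include animal 4, whose direction is not settled. In the deposited table of normalized ratios the dimmer Stat3 probe had a day 7 mean of 0.27 and a day 21 mean of 0.013.

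**Figure D3:**
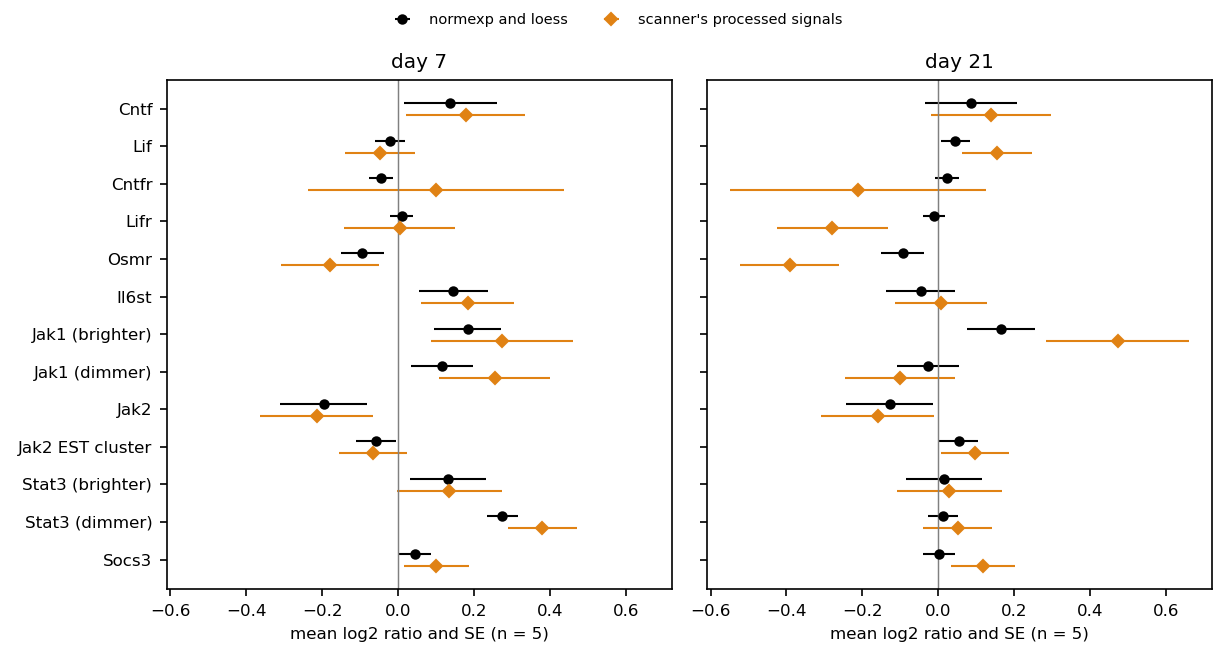
Mean log2 ratio of sprouting over non-sprouting neurons (x axis) with its SE from the fit (bars, n = 5 animals) for the 13 probes (y axis), day 7 at left and day 21 at right; black circles are normexp and loess values, orange diamonds the scanner's processed signals. Dim probes such as Cntfr, Lifr and Osmr have wider bars with processed signals, and the dimmer Stat3 probe is at 0.275 and 0.38 on day 7.

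Between the days, levels were compared within each cell type, 5 animals against 5, on log2 channel levels normalized between arrays. No member passed (limma, adjusted p under 0.05), and 0% of genes did in either cell type. At an unadjusted p under 0.05, 0 members in sprouting and 1 in non-sprouting neurons were counted, against 8.85% and 8.97% of all genes. The median difference of day 21 minus day 7 over the members was -0.126 in sprouting and -0.13 in non-sprouting neurons, beside -0.046 and -0.044 over all genes.

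The order of the 4 group means at the Stat3 probe was sprouting at day 7, non-sprouting at day 7, sprouting at day 21 and non-sprouting at day 21. In sprouting neurons its log2 level was 9.26, 9.875, 8.69, 9.56 and 9.47 at day 7, with a mean of 9.37 ± 0.44 (SD, n = 5). At day 21 it was 9.14, 9.04, 9.16, 8.52 and 8.75, with a mean of 8.92 ± 0.28 (SD, n = 5). The groups overlapped through animal 3 of day 7. The difference was -0.45 (95% interval -0.925 to 0.024; limma unadjusted p = 0.0607, adjusted p = 0.569). In non-sprouting neurons the means were 9.24 ± 0.26 (SD, n = 5) and 8.91 ± 0.29 (SD, n = 5), a difference of -0.33 (limma unadjusted p = 0.0732, adjusted p = 0.561). The dimmer probe gave -0.37 in sprouting and -0.11 in non-sprouting neurons, and its 4 group means came in the same order.

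Cntf had the same order of group means: 8.98 ± 0.17 and 8.84 ± 0.26 at day 7, in sprouting and non-sprouting neurons, and 8.56 ± 0.43 and 8.47 ± 0.475 at day 21 (SD, n = 5 each). In sprouting neurons the day 7 levels ran from 8.81 to 9.27 and the day 21 levels from 8.002 to 9.17, so the groups overlapped. The difference was -0.42 (limma unadjusted p = 0.0528, adjusted p = 0.567). Jak2 in non-sprouting neurons went from 8.91 ± 0.15 to 8.64 ± 0.18 (SD, n = 5 each), a difference of -0.26 (limma unadjusted p = 0.0489, adjusted p = 0.554). Jak1 was the member with a positive difference in both cell types, 0.30 in sprouting and 0.32 in non-sprouting neurons, with limma adjusted p of 0.658 and 0.614. Its dimmer probe gave 0.004 and 0.147. Il6st differed by -0.11 in sprouting and 0.08 in non-sprouting neurons, with SDs of 0.41 to 0.57 within the 4 groups.

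The remaining members, Lif, Cntfr, Lifr, Osmr and Socs3, had negative differences of at most 0.17 in size in both cell types, and the lowest limma adjusted p among them was 0.662. At the 13 probes all 39 pairs of neighbours in the order of the 4 group means had overlapping ranges. The share over all probes was not counted, so this is a description only. Such ranges also ignore that both cell types come from the same animals. The dimmer Stat3 probe counts as overlapping at day 7, though its ratio was positive in 5 of 5 animals.

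**Figure D4:**
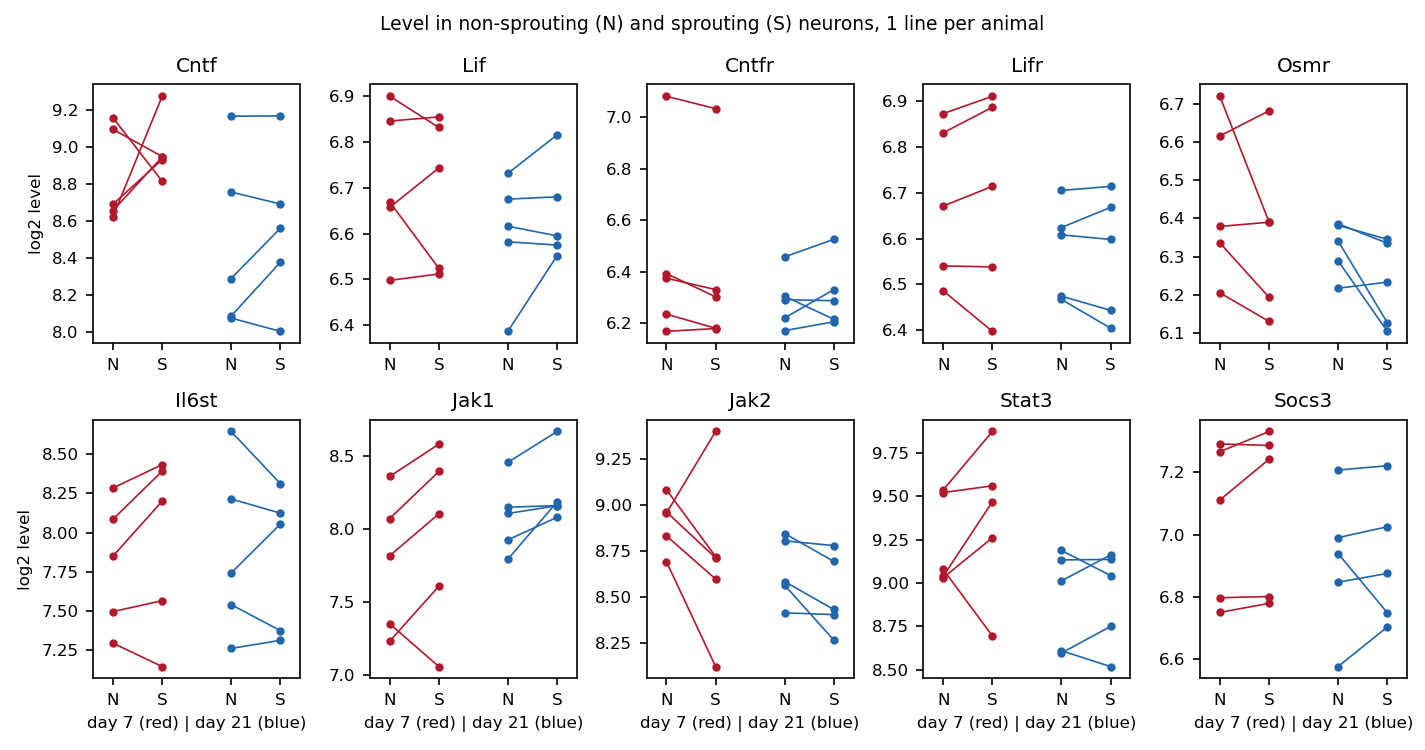
Normalized log2 level (y axis, a separate scale for each gene) in non-sprouting (N) and sprouting (S) neurons of each animal, joined by a line, at day 7 (red) and day 21 (blue), for the probe that stood for each of the 10 genes. The spread between animals of a group is wider than most differences within an animal, and for Jak2 all day 21 lines run downward.

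Arrays were scanned on 5 days. The 2 arrays of 1 animal were scanned on different days, and each animal was given the scan day of its unswapped array. Of the 5 days, 3 hold animals of both groups, with 8 animals in all. Within those scan days the Cntf level in sprouting neurons differed by -0.36, -0.46 and -0.58 between day 21 and day 7, each from 1 animal of day 7 and 1 or 2 of day 21. For Stat3 in sprouting neurons the values were 0.13, -0.37 and -0.81, so its sign was not the same in all of them. With the scan day as a block, a fit without the 2 animals of day 7 that were scanned on days of their own, the differences were -0.46 for Cntf and -0.31 for Stat3, with limma unadjusted p of 0.135 and 0.217. For Jak2 in non-sprouting neurons they were -0.26, 0.013 and -0.67 within scan days and -0.27 with the block. Both cell types of an animal share each array, so the sprouting ratio is measured within an array. In the block fit the day 7 ratio was 0.028 for Stat3, 0.307 for Jak1 and -0.183 for Osmr. Without the block, and with all animals, it was 0.131, 0.183 and -0.094. The limma unadjusted p in the block fit was 0.826, 0.0061 and 0.0313, with adjusted p of 0.969, 0.286 and 0.44.

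The rest of the pathway was covered by 6 lists with 63 genes, of which 59 were tested. None passed after adjustment by limma in any comparison. At day 7, 1 had a higher and 7 had a lower ratio at an unadjusted p under 0.05, which is 8 of 59 against 9.47% of all genes. At day 21 the counts were 1 and 0, against 5.8% of all genes. On the mean of both days they were 3 and 6, against 11%.

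Among the other JAKs and STATs, Tyk2, the third kinase that associates with gp130, had a ratio of 0.107 ± 0.058 at day 21 (SD, n = 4, since an outlier spot left animal 3 without a value; higher in 4 of 4; limma unadjusted p = 0.0269, adjusted p = 0.841). Those 4 include animal 4, whose direction is not settled. Over both days the mean ratio of Tyk2 was 0.083. Stat4, a STAT best known from lymphocytes, changed from -0.108 at day 7 to 0.041 at day 21 without passing (limma unadjusted p = 0.0497).

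Of the 13 tested inhibitors and other SOCS genes, 3 had a lower and 0 a higher ratio at day 7 at an unadjusted p under 0.05. Of all genes, 9.47% reached that p. Pias2, a member of a family of proteins that bind activated STATs, was at -0.147 ± 0.11 (SD, n = 5; lower in 5 of 5 animals; limma adjusted p = 0.46). Socs4 was at -0.072 ± 0.024 (SD, n = 5; lower in 5 of 5; adjusted p = 0.464) and at 0.02 at day 21. Ptpn1, a phosphatase that acts on Janus kinases, was at -0.21 at day 7, but its second probe had 0.13 on the mean of both days where the brightest had -0.105. No ligand or receptor of the other lists had the same sign in every day 7 or day 21 animal together with p under 0.05. Il27ra, a cytokine receptor chain, was at -0.061 on the mean of both days (limma unadjusted p = 0.0353).

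Ctf1, which encodes cardiotrophin, another ligand of the family, had level differences between days of -0.485 in sprouting and -0.54 in non-sprouting neurons (limma unadjusted p = 0.0418 and 0.0141, adjusted p = 0.561 and 0.526). Il11ra1, a receptor chain of the family, had -0.54 and -0.43 (limma adjusted p = 0.465 and 0.542). Both therefore had the sign of Stat3 and Cntf in both cell types, in animals that are the same ones for each cell type. Each was picked as the 1 gene of its list at an unadjusted p under 0.05, and the lists were mixed. Of 6 tested ligands 4 were higher at day 21 in sprouting and 3 in non-sprouting neurons, and of 3 receptors 1 in each. Of the 59 genes 0 were higher at that p, and 4 in sprouting and 8 in non-sprouting neurons were lower, against 8.85% and 8.97% of all genes.

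Among adaptors, Ptpn11, the phosphatase SHP2 that links gp130 to the MAP kinase route, had a mean ratio over both days of 0.61 (SE 0.225; limma unadjusted p = 0.0209, adjusted p = 0.42), and its second probe 0.51. It was higher in 4 of 5 animals on each day, with a day 7 mean of 0.72 ± 0.96 (SD, n = 5). Of 23 genes known as STAT3 targets, 0 had a higher and 2 a lower ratio at day 7 at an unadjusted p under 0.05. That is 2 of 23 against 9.47% of all genes, and the median ratio of the targets was -0.01. Vip, a neuropeptide gene that STAT3 can induce and that also marks a class of cortical interneurons, was at -0.93 ± 0.78 at day 7 (SD, n = 5; lower in 5 of 5 animals; limma unadjusted p = 0.0049, adjusted p = 0.429). At day 21 it was at -0.27 ± 0.51 (SD, n = 5). Bcl2l1, a survival gene, had 0.15 on the mean of both days (limma adjusted p = 0.445), while its next 2 probes had 0.01 and -0.007. Serpina3n, an acute-phase gene, and Birc5, an inhibitor of apoptosis, had -0.053 and -0.094 (limma adjusted p = 0.435 and 0.443). Of the same list, Ccnd1, the cyclin D1 gene, had a level difference between days of -0.52 in sprouting and -0.44 in non-sprouting neurons (limma adjusted p = 0.559 and 0.503), with -0.084 and -0.249 at its second probe. In non-sprouting neurons Birc5 had -0.38 and Bcl2, another survival gene, -0.32 (limma adjusted p = 0.534 and 0.539).

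Markers of other cells were present in these captured neurons. All 8 measured neuron markers were well above background in both cell types on both days, but so were all 14 astrocyte and all 13 oligodendrocyte markers. Of 13 microglia markers 12 or 13 were, and of 11 measured endothelial and mural markers 10 or 11. At day 7 the oligodendrocyte markers had a median ratio of 0.289, with animal medians of -0.34, 0.20, -0.074, 0.75 and 0.92. Of these 13 markers 12 had a mean ratio above 0 and 1 below it. At a limma unadjusted p under 0.05, 2 of 13 were higher, and 9.47% of all genes reached that p in either direction. The dimmer Stat3 probe was at 0.28, 0.30, 0.31, 0.18 and 0.30 in the same day 7 animals. The part of glial RNA in this ratio was not tested. Astrocyte markers had a day 7 median of 0.025, with animal medians of -0.029, -0.011, -0.165, 0.052 and 0.465, and microglia markers one of 0.033. At day 21 the astrocyte markers had a median ratio of -0.153, with 4 of 14 lower at an unadjusted p under 0.05. Of all genes, 5.8% reached it at day 21 in either direction. The 8 interneuron markers had medians of 0.063 at day 7 and 0.052 at day 21, and the endothelial and mural markers of 0 and -0.1. Between the days, in sprouting neurons, 7 of 14 astrocyte markers were lower at day 21 at an unadjusted p under 0.05 (median -0.39) and 9 of 13 oligodendrocyte markers (median -0.69). In non-sprouting neurons the medians were -0.195 and -0.32, with 0 of 14 and 1 of 13 lower at that p. Between the days 8.85% of all genes in sprouting and 8.97% in non-sprouting neurons reached it in either direction. The summed log2 level of the astrocyte markers ran from 15.8 to 16.4 at day 7 and from 15.4 to 15.8 at day 21 in sprouting neurons, and that of oligodendrocyte markers from 15.2 to 16.3 and from 13.8 to 15.7. Stat3 and Cntf, with differences of -0.45 and -0.42 in the same neurons, are genes that glia express. The part of glial RNA in their levels and ratios was not tested.

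The genes whose ratio over the 10 animals was most like a member's were taken from 13877 genes with a symbol, provisional names set aside. For the Stat3 probe they were Pex16, Cenpa and Pard3, with Pearson r of 0.944, 0.932 and 0.914. For Il6st they were Cap1, Tnpo3 and Mprip, with r of 0.946, 0.943 and 0.938. For Lifr they were Polr3k, Thap12 and Camkk1, with r of 0.912, 0.894 and 0.888, and for Socs3 Dnmt3b, Asgr2 and Ascl5, with r of 0.949, 0.932 and 0.931. They are the highest of 13877 values over 10 animals, each pair measured on the same arrays, so they are a description, and for Lifr and Socs3 they rest on probes near the level of negative controls.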

How the data were processed

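Each file of scanner output holds intensity values of both channels: mean signals, local background and processed signals, from Agilent Feature Extraction 9.1.3.1 per the file headers. A deposited table gives log2 ratios whose normalization is not given in the sources used here; 20 of its columns served as an alternative and 20 others were left out. Mean signals were corrected by normexp (offset 50) and loess (limma 3.58.1, R 4.3.3), with control spots at weight 0 and outlier spots removed. Each ratio was set as sprouting over non-sprouting and the 2 arrays from each animal averaged. Probes had to be well above background in at least 0.5 of the arrays in some cell type and day, and measured in at least 3 animals of each day; 37343 of 41012 were. The brightest probe stood for its gene. A fit with a mean per day (lmFit, eBayes; two-sided) was adjusted over 33089 genes; levels were compared after Aquantile normalization. Text names all member probes and, per list and comparison, up to 4 genes of smallest unadjusted p under 0.05 (at a single day also of 1 sign in every measured animal); 1 such gene is not reported here. Members and lists were chosen with earlier results of these data known. Scripts were tested on simulated data. The number of animals limits precision. Alternatives covered background, centring, filters, probe choice, blocks and single animals left out.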

Additional observations from a re-analysis of the deposited data

Results flagged for a closer look

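Of 78 groups of 5 animals (ratio and both levels of 13 probes on both days) 5 had a single animal far from the others, where chance alone gives about 1 in 20, or 3.9. The Jak1 ratio at day 7 was -0.294 in animal 1, with the next at 0.221. The dimmer Stat3 probe at day 7 had 0.184 in animal 4, with the other 4 animals between 0.28 and 0.306, so its low animal was still above 0. The Jak1 level in sprouting neurons at day 21 was 8.67 in animal 5, with the next at 8.187. Cntfr levels at day 7 were 7.033 in sprouting and 7.081 in non-sprouting neurons of animal 5, with the next at 6.331 and 6.393; both readings are from the same pair of arrays. No change of a member's ratio between the days passed the test.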

How the results depend on the processing

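The count of members past the threshold was 0 in all 6 comparisons under every alternative run. No member changed its side of the threshold at the probe that stood for it, and the dimmer Stat3 probe passed in 1 alternative, as given above. The fit over 20 arrays counts both arrays of an animal and holds a dye term. It passed 402 genes at day 7, 511 on the mean and 4 for the change between days, against 1, 0 and 0. Under it Vip passed at day 7 (-0.933, adjusted p = 0.0126) and on the mean (-0.601, adjusted p = 0.0209), and Ptpn11 on the mean (0.612, adjusted p = 0.0467). The replicate numbers do not pair animals, whose cohorts were separate: same-numbered animals correlated at -0.196 to 0.000976 and 0 of 5 matched best with their own number. With the replicate block the count stayed at 0 in the 6 comparisons, and the Stat3 ratio at day 7 was 0.131 with adjusted p = 0.771.

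Signs turned for the values that follow, and the cause was not tested; among members the largest reported value with a turned sign was 0.165, for Jak1 at day 21. With no background subtraction Cntfr on the mean was 0.003, and the changes of ratio between days were 0.001 for Jak1 and 0.005 for Osmr. With processed signals Cntfr was 0.099 at day 7, -0.212 at day 21 and -0.311 for the change, Il6st 0.007 at day 21, and the changes of Jak1 and Socs3 were 0.2 and 0.017. With median centring Lif was 0.005 and Cntfr 0.013 at day 7, Stat3 -0.011 and Lifr 0.06 at day 21, Lifr 0.046 and Cntfr 0.043 on the mean, and the changes of Cntf, Jak1 and Lifr were 0.031, 0.029 and 0.028. In the deposited ratios Socs3 was -0.009 at day 21 and Lifr 0.004 on the mean. With the mean over probes Ptpn1 was 0.012 on the mean of both days and 0.17 for the level in non-sprouting neurons. With the scan day as a block, and 2 animals fewer, Lifr was -0.016 at day 7, Lif -0.009 on the mean, the changes of Lifr and Osmr 0.005 and 0.102, and the level differences in sprouting neurons 0.075 for Il6st, 0.004 for Lif and 0.004 for Lifr. With the dimmer Jak1 probe, an alternative chosen after seeing the data, as was the dimmer Stat3 probe, Jak1 at day 21 was -0.028.

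Leaving out 1 animal at a time turned the sign for these members, given as ranges. At day 21 Il6st ran from -0.135 to 0.026, Lifr from -0.024 to 0.003, Socs3 from -0.028 to 0.051 and Stat3 from -0.021 to 0.054. At day 7 Lif ran from -0.048 to 0.01 and Lifr from -0.003 to 0.033. On the mean of both days Cntfr ran from -0.021 to 0.003, Lif from -0.003 to 0.028 and Lifr from -0.007 to 0.012. For the change between days Cntf ran from -0.173 to 0.075, Jak1 from -0.137 to 0.03, Jak2 from -0.026 to 0.228, Osmr from -0.059 to 0.04 and Socs3 from -0.072 to 0.007. For levels Il6st ran from -0.112 to 0.235 in non-sprouting and from -0.313 to 0.019 in sprouting neurons, and Cntfr from -0.149 to 0.064 in sprouting neurons. Signal near that of negative controls limits Lif, Cntfr, Lifr and Osmr.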
